A study of Mus musculus with 12 samples.

Results

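The lysosomal genes described here are 34 genes chosen by symbol: 6 encode membrane proteins, 10 proteases, 8 glycosidases and 8 lipid enzymes and carriers, and the 2 others encode the transcription factors Tfeb and Tfe3. A gene was represented by the row of the deposited table that carries its symbol alone, and by the brightest such row where there were several. All 34 genes had exactly 1 such row, out of 35556 rows, of which 21789 carry a single gene symbol. The study asked how the transcription factor Runx3 shapes the mononuclear phagocytes of the colon, and measured RNA of 2 cell types sorted from the cecum of C57Bl/6 mice on Affymetrix arrays.

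Resident macrophages (RM) and CD11b+ dendritic cells (CD11b+ DC) were both sorted as CD45+, CD11c+, MHCII+, CD11b+ cells without Ly6c, and differed in F4/80, which RM carry and CD11b+ DC lack. Mice 6 to 8 weeks of age were used, with both sexes pooled, and each sample pooled the cells of 3 to 4 mice. Wild-type (WT) samples came from Runx3 +/+ littermates (3 of RM and 2 of CD11b+ DC). Runx3Δ samples came from mice with floxed Runx3 alleles and a CD11c-Cre transgene (4 of RM and 3 of CD11b+ DC), so that the allele was deleted in cells with CD11c promoter activity, among them both sorted types. The labels give each sample a litter number. Values are log2 intensities (log2 units), and their precision is limited by the number of arrays, 12 in all.

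The Runx3 row itself was at 9.83, 9.48 and 9.76 in WT RM and at 10.18, 9.87, 9.88 and 9.85 in Runx3Δ RM, and between 9.97 and 10.14 in all 5 CD11b+ DC samples. This row summarises probes along the gene, and no probe is known here to lie in the floxed exon, so it does not check the deletion. Resident macrophage markers were higher in WT RM than in WT CD11b+ DC for 11 of 12 genes and conventional DC markers lower for 10 of 12 and higher for 1 (Sirpa, 0.71, and 0.62 in Runx3Δ cells), with Adgre1, the F4/80 gene on which the gate rests, at a mean of 11.86 against 9.73 and Zbtb46, a transcription factor of conventional DC, at 5.54 against 7.19. B and plasma cell markers also stood higher in RM. Their mean level over 9 genes ran from 7.92 to 9.31 in WT RM and from 7.25 to 7.96 in WT CD11b+ DC, and from 8.42 to 8.97 in Runx3Δ RM and from 7.54 to 8.09 in Runx3Δ CD11b+ DC, with 1 gene (Cd79b) called in WT and 3 (Cd79a, Cd79b and Sdc1) in Runx3Δ cells. Their part in the results below was not tested. T and NK cell, epithelial, stromal and monocyte lists had 1 to 3 genes called in either direction or none. The epithelial list had 2 genes lower in RM in each genotype, down to -3.21 in WT and -2.60 in Runx3Δ, and 1 higher in WT. The T and NK list had 1 gene higher in RM in each genotype, by 2.63 in WT and 1.71 in Runx3Δ. The part of these lists in the results below was not tested either.

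Lysosomes are acidified organelles in which hydrolases break down proteins, glycans and lipids that arrive by phagocytosis, endocytosis and autophagy. Most soluble hydrolases reach them through the mannose 6-phosphate tag, a vacuolar proton pump keeps their lumen acid, and heavily glycosylated membrane proteins line them. Macrophages are known for a large degradative capacity and conventional DC for a milder one that spares peptides for presentation to T cells. Tfeb and Tfe3 are basic helix-loop-helix factors that bind an E-box motif in the promoters of many lysosomal genes and enter the nucleus when mTORC1 is inactive.

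Promoter sequences show which of these genes carry that motif near their start. RefSeq promoters of the GRCm38.p6 assembly, running from 250 bases before to 50 bases after the transcription start, were matched for 30 of the 34 genes (36 windows). Npc1, Ctsb, Ctsh and Asah1 were not matched. The E-box CACGTG, which reads the same on both strands, was present in 9 of 30 genes (30%), against 8.91% of 17491 protein-coding genes. The extended form TCACGTGA, which contains the E-box, was present in 3 of 30 (10%), against 1.41% of all. The 10-base palindrome that extends TCACGTGA by G before and C after was in no window of the 30 genes and in 0.469% of all genes. Of 83 other lysosomal genes with a window, from the lists described below, 30.1% held the E-box, 15.7% TCACGTGA and 3.61% the 10-base palindrome. The sequences shown are those with several or extended E-boxes and those of the 2 proteases Ctsl and Lgmn, whose expression is described below. They are written along the gene's strand, with TCACGTGA or, where that is absent, CACGTG in capitals. The Lamp1 stretch holds 4 E-boxes in 67 bases just before the start, a number reached in 1 window by 5 of the 17491 genes (0.0286%).
Lamp1, chr8:13159094-13159160, plus strand: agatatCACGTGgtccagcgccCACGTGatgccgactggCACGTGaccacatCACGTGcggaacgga
Ctsd, chr7:142387908-142387937, minus strand: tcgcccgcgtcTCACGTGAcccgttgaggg
Gla, chrX:134601182-134601211, minus strand: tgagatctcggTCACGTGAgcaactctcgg
Gla, chrX:134601215-134601244, minus strand: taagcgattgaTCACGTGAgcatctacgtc
Ctsa, chr2:164833749-164833778, plus strand: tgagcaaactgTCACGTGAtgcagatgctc
Ctsa, chr2:164833766-164833795, plus strand: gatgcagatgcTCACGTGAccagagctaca
Ctsl, chr13:64370739-64370768, minus strand: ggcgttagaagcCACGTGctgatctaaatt
Lgmn, chr12:102439124-102439153, minus strand: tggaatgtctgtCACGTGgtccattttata

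Glb1, Gaa and Naglu each held 1 E-box as well, while the windows of Tfeb and Tfe3 held none. Ctsd held a further E-box, without the extension, 242 bases before its start, which is not shown. The hexamer TGTGGT, a core that Runx factors bind, was found on either strand in 7 of 30 genes (23.3%), against 17.2% of all. Such a match is a description of the window, not a binding site.

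The first comparison asked how the 2 cell types differ in WT mice. Most of these genes were more highly expressed in RM than in CD11b+ DC: 21 of the 34 genes were higher in WT RM, none was lower and 13 did not pass the test (limma, adjusted p under 0.05 over all rows). Over all rows 3.05% were called higher and 3.02% lower. The median difference of the 34 genes was 0.65 log2 units (range -0.13 to 2.18), against -0.00 over all rows, and 32 of 34 were above 0. The genes with the widest gaps were those of the protease cathepsin L (Ctsl, 4.52-fold), the membrane protein Cd63 (3.83-fold), the lipid enzyme galactosylceramidase (Galc, 2.66-fold) and the protease legumain (Lgmn, 2.63-fold). In such bulk samples fewer cells of a type and less RNA per cell cannot be told apart, and p-values measure the spread between these pools. With only 2 WT CD11b+ DC samples the count of 21 rested on both, and it fell whichever of them was left out. Such a fit holds 1 WT CD11b+ DC sample, which is assumed to vary like the other groups. When the WT samples were fitted alone the count was 10, and the share of all rows called higher fell too, from 3.05% to 1.23%.

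The same comparison among Runx3Δ samples, which shares no sample with the first but shares litters and the estimate of spread, gave 21 genes higher, none lower and 13 that did not pass, where 3.73% of all rows were called higher and 4.12% lower. The median difference was 0.58 (range -0.37 to 2.06), against 0.02 over all rows. Of the 34 genes, 18 were called higher in both genotypes (2.25% of all rows were), 3 in WT (Gla, Gaa and Asah1), 3 in Runx3Δ (Ctsk, Naglu and Psap) and 10 in neither. For the 6 genes called in a single genotype, the difference between genotypes was itself tested as an interaction, and none passed. Across the 34 genes the differences of the 2 genotypes correlated with r = 0.895, and across the 21789 rows with a single symbol with r = 0.856, both as descriptions across genes, which are not independent replicates.

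**Figure D1:**
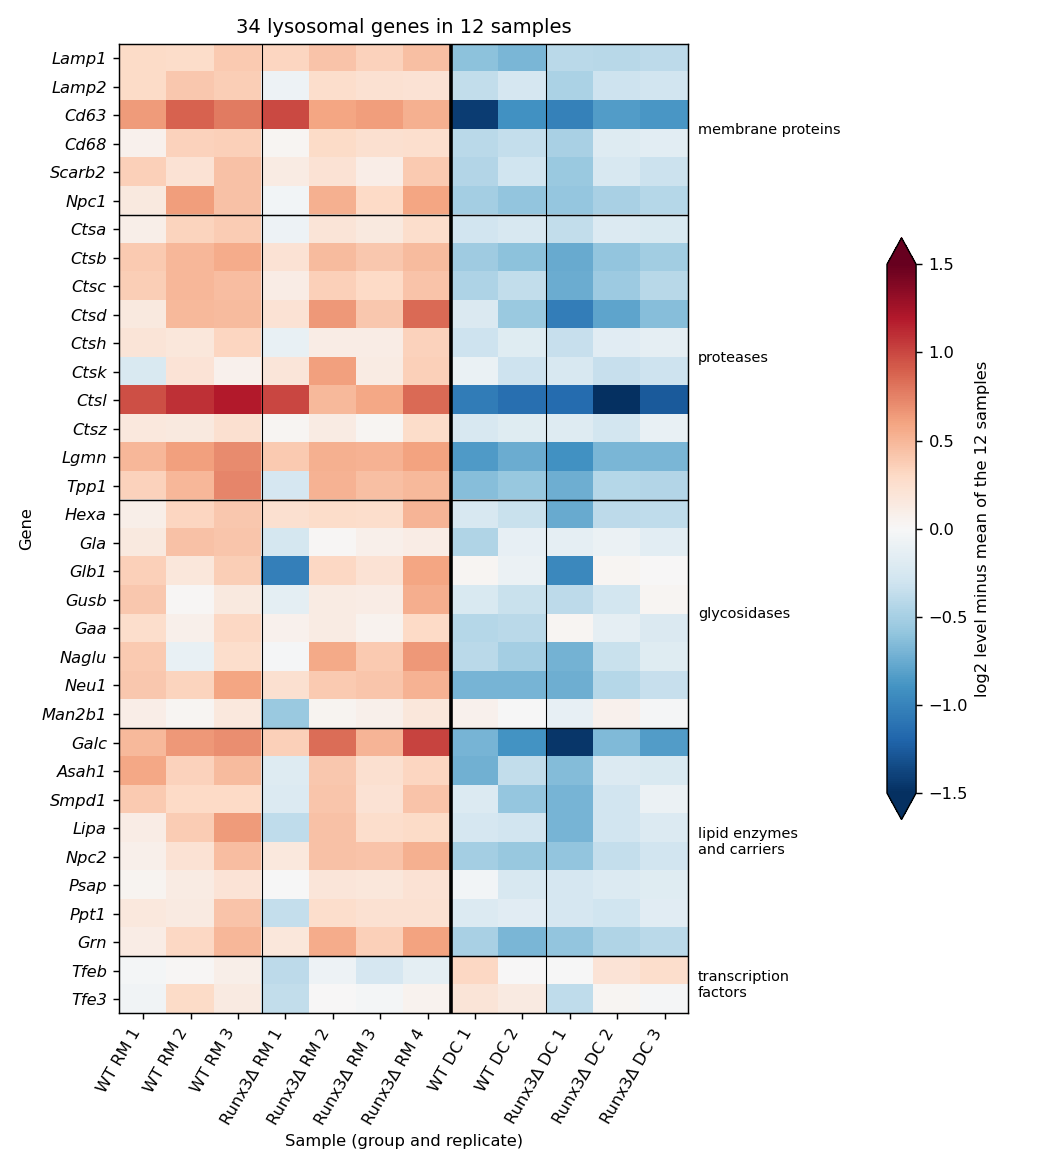
Level of each of the 34 lysosomal genes (rows, grouped by role) in each of the 12 samples (columns, grouped by cell type and genotype), coloured by the log2 intensity minus the gene's mean over the 12 samples. The RM columns lie above and the CD11b+ DC columns below the gene's mean in most rows outside the transcription factors, and the Runx3Δ RM sample of litter 1 is paler than the other RM samples.

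In 24 of the 34 genes all 7 RM samples stood above all 5 CD11b+ DC samples, a separation found in 3.88% of all rows. Within WT, where fewer samples have to separate, this held for 30 of 34 genes and 16.1% of all rows. Within Runx3Δ it held for 25 genes and 9.32% of rows, with 1 gene, Tfeb, the other way round, as were 10.2% of rows. RM and CD11b+ DC of the same litter and genotype form 5 pairs, and 28 of 34 genes were above 0 in all 5, with 29 to 34 genes above 0 in a single pair. The share of all rows above 0 in these pairs was not counted, so the pair counts are a description of the 34 genes alone.

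**Figure D2:**
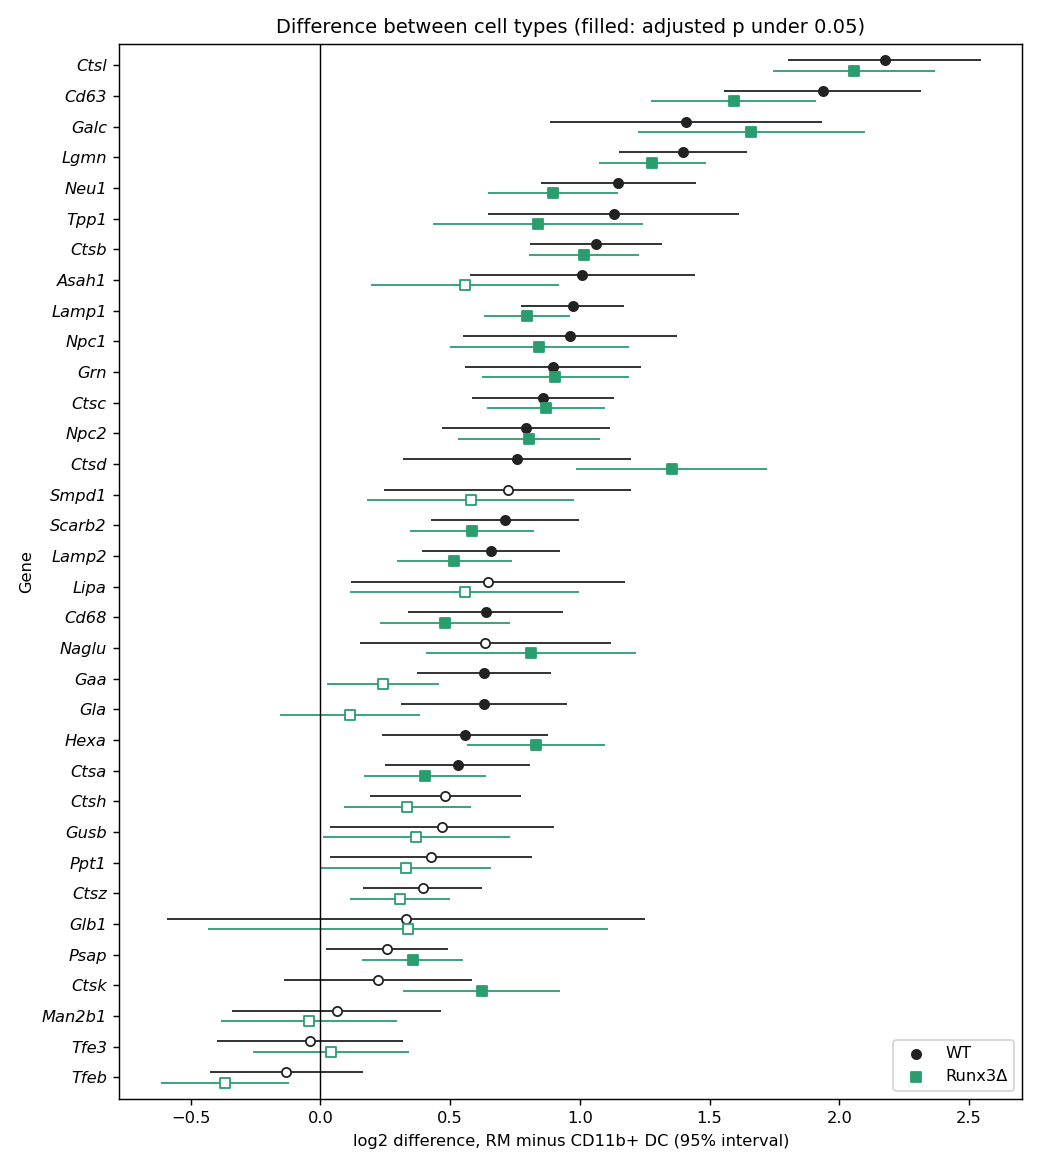
Difference between RM and CD11b+ DC (log2 units, with 95% confidence interval from limma) for each gene, in WT (circles) and Runx3Δ (squares) samples, filled where the adjusted p was under 0.05. Ctsl and Cd63 lie farthest to the right in WT and the 2 transcription factors lie at or below 0 in WT.

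All 6 membrane proteins were higher in RM in both genotypes. Cd63, a tetraspanin of late endosomes and lysosomes, was at 9.76, 9.99 and 9.89 in WT RM and at 7.68 and 8.21 in WT CD11b+ DC, and in Runx3Δ samples at 10.10, 9.71, 9.74 and 9.65 in RM against 8.10, 8.28 and 8.24 in CD11b+ DC. No RM sample fell into the range of the CD11b+ DC samples. The difference was 1.94 ± 0.17 (SE) in WT (adjusted p = 9.5e-05) and 1.59 ± 0.14 in Runx3Δ (adjusted p = 8.5e-05). Lamp1, a major glycoprotein of the lysosomal membrane and the gene with 4 E-boxes printed above, was at 11.94, 11.92 and 12.04 in WT RM, 11.96, 12.08, 11.99 and 12.10 in Runx3Δ RM, 11.02 and 10.96 in WT CD11b+ DC and 11.24, 11.23 and 11.25 in Runx3Δ CD11b+ DC. Samples of a group lay close together and the cell types did not overlap, with differences of 0.97 ± 0.09 (adjusted p = 0.00011) and 0.80 ± 0.07 (adjusted p = 0.00010). Npc1, which exports cholesterol from the lysosome, was at 9.70, 10.18 and 9.99 in WT RM, 9.51, 10.09, 9.85 and 10.15 in Runx3Δ RM, 9.04 and 8.96 in WT CD11b+ DC and 8.97, 9.07 and 9.12 in Runx3Δ CD11b+ DC. RM samples of Npc1 spread more widely than those of Lamp1 yet stayed above every CD11b+ DC sample. Its difference of 0.96 ± 0.19 in WT (adjusted p = 0.011) lost its call without either WT CD11b+ DC sample (adjusted p = 0.068 without replicate 1 and 0.095 without replicate 2) and in the fit of WT samples alone (0.056), while that of 0.84 ± 0.16 in Runx3Δ had an adjusted p of 0.0068. The 3 remaining membrane proteins were the glycoprotein Lamp2, the macrosialin gene Cd68 and Scarb2, the receptor that carries glucocerebrosidase to the lysosome, with differences of 0.64 to 0.71 in WT and 0.48 to 0.58 in Runx3Δ, and none of the 3 overlapped between cell types.

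Of the 10 proteases, 7 were higher in WT RM and 8 in Runx3Δ RM, none was lower, and 2 passed in neither genotype. Ctsl, a cysteine protease with an E-box 233 bases before its start, was at 10.58, 10.71 and 10.81 in WT RM and 8.57 and 8.48 in WT CD11b+ DC, and at 10.61, 10.10, 10.19 and 10.47 in Runx3Δ RM against 8.46, 8.04 and 8.36 in Runx3Δ CD11b+ DC. The gap between the cell types was wider than the spread within any group, and it was 2.18 ± 0.17 in WT (adjusted p = 4.9e-05) and 2.06 ± 0.14 in Runx3Δ (adjusted p = 1.8e-05). Lgmn, the asparaginyl endopeptidase that activates several cathepsins, was at 12.62, 12.74 and 12.83 in WT RM, 12.52, 12.66, 12.65 and 12.73 in Runx3Δ RM, 11.28 and 11.39 in WT CD11b+ DC and 11.22, 11.44 and 11.44 in Runx3Δ CD11b+ DC. Both genotypes gave nearly the same values within each cell type, and the differences were 1.40 ± 0.11 (adjusted p = 5.5e-05) and 1.28 ± 0.09 (adjusted p = 2.3e-05).

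Ctsb, another cysteine protease, was at 12.89, 13.00 and 13.06 in WT RM, 12.72, 12.97, 12.90 and 12.98 in Runx3Δ RM, 11.96 and 11.88 in WT CD11b+ DC and 11.74, 11.90 and 11.98 in Runx3Δ CD11b+ DC, 2.09-fold and 2.02-fold higher in RM (adjusted p = 0.00029 and 0.00010). Ctsc, the dipeptidyl peptidase that activates granule serine proteases, was at 12.65, 12.78 and 12.75 in WT RM, 12.39, 12.64, 12.58 and 12.71 in Runx3Δ RM, 11.82 and 11.92 in WT CD11b+ DC and 11.54, 11.74 and 11.86 in Runx3Δ CD11b+ DC, with differences of 0.86 ± 0.12 and 0.87 ± 0.10 (adjusted p = 0.0018 and 0.00042). Neither protease overlapped between the cell types. Tpp1, a tripeptidyl peptidase, was at 10.84, 11.00 and 11.23 in WT RM, 10.24, 11.02, 10.95 and 10.98 in Runx3Δ RM, 9.86 and 9.93 in WT CD11b+ DC and 9.76, 10.07 and 10.05 in Runx3Δ CD11b+ DC. Runx3Δ RM replicate 1 stood well below the other RM samples and still above the CD11b+ DC samples. Its differences were 1.13 ± 0.22 (adjusted p = 0.010) and 0.84 ± 0.18 (adjusted p = 0.016), and the call was lost without WT CD11b+ DC replicate 1 (0.086) or 2 (0.072) in WT, and without Runx3Δ CD11b+ DC replicate 1 (0.074) in Runx3Δ.

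The aspartyl protease Ctsd, with TCACGTGA 95 bases before its start, was at 11.47, 11.81 and 11.80 in WT RM and 11.53, 11.97, 11.73 and 12.17 in Runx3Δ RM, and at 11.11 and 10.77 in WT CD11b+ DC and 10.28, 10.52 and 10.68 in Runx3Δ CD11b+ DC. The Runx3Δ CD11b+ DC samples were all below the WT ones, while the RM genotypes overlapped. RM exceeded CD11b+ DC by 0.76 ± 0.20 in WT (adjusted p = 0.0498) and by 1.35 ± 0.17 in Runx3Δ (adjusted p = 0.00052). Ctsk, a collagen-degrading cathepsin whose row has a low signal, was at 5.28, 5.72 and 5.57 in WT RM and 5.69, 6.12, 5.63 and 5.87 in Runx3Δ RM, against 5.41 and 5.19 in WT CD11b+ DC and 5.26, 5.16 and 5.19 in Runx3Δ CD11b+ DC. WT RM and WT CD11b+ DC overlapped and Runx3Δ RM stood apart from all CD11b+ DC samples, with differences of 0.22 ± 0.16 (adjusted p = 0.60) and 0.62 ± 0.14 (adjusted p = 0.018). The serine carboxypeptidase Ctsa, which carries 2 overlapping stretches with TCACGTGA at its start, was 1.44-fold and 1.32-fold higher in RM. The aminopeptidase Ctsh and the carboxypeptidase Ctsz showed no overlap between cell types but did not pass the test, with differences of 0.48 and 0.39 in WT and 0.34 and 0.30 in Runx3Δ. With litter as a replicate block Ctsh passed in WT (adjusted p = 0.027).

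**Figure D3:**
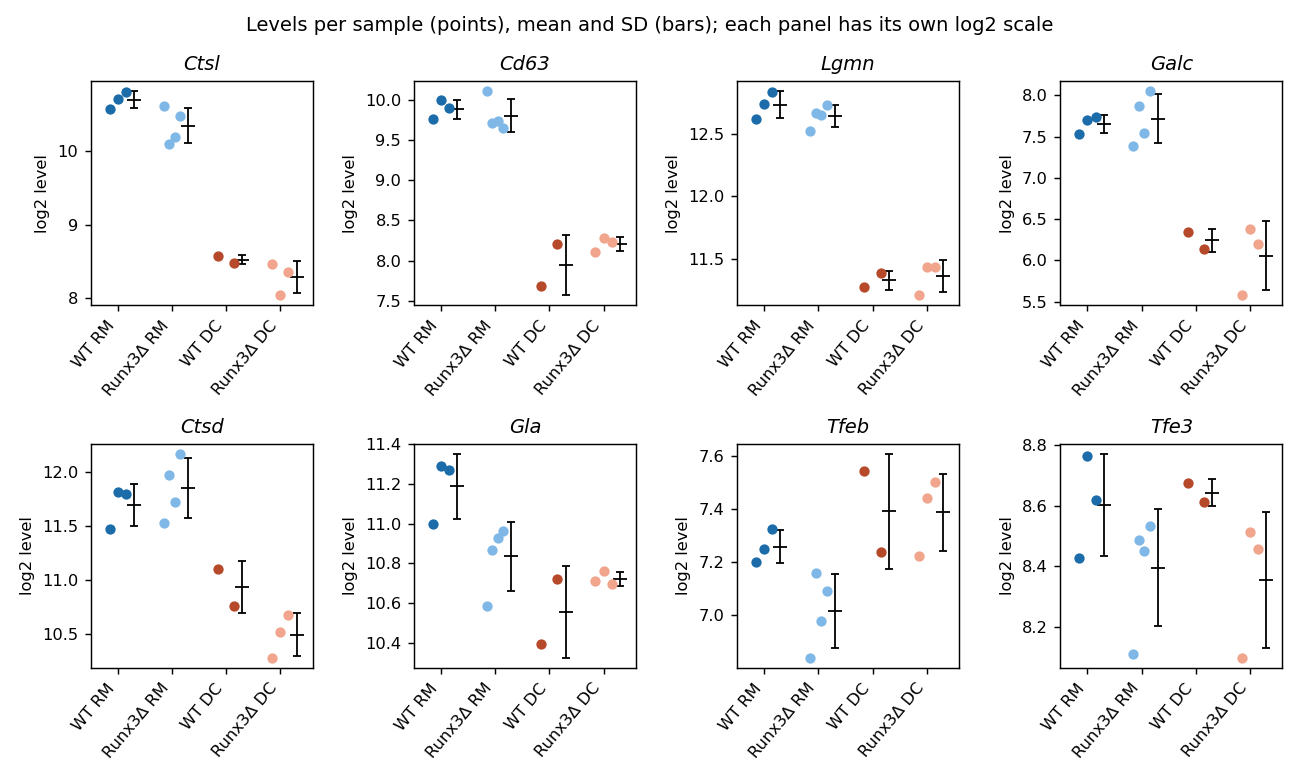
Log2 intensity of selected genes in every sample, by cell type and genotype, as points with the group mean and SD beside them, each panel on its own scale. Ctsl, Cd63, Galc and Lgmn separate RM from CD11b+ DC in both genotypes, while Tfe3 overlaps between the cell types and Tfeb does so in WT.

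Among the 8 glycosidases, 4 were higher in WT RM and 3 in Runx3Δ RM, and none was lower. Neu1, the sialidase that removes terminal sialic acid, was at 8.29, 8.22 and 8.47 in WT RM, 8.12, 8.27, 8.30 and 8.40 in Runx3Δ RM, 7.18 and 7.18 in WT CD11b+ DC and 7.15, 7.45 and 7.54 in Runx3Δ CD11b+ DC. It did not overlap between cell types, and RM exceeded CD11b+ DC by 1.15 ± 0.14 in WT (adjusted p = 0.00050) and 0.90 ± 0.11 in Runx3Δ (adjusted p = 0.00062). Hexa, the alpha subunit of beta-hexosaminidase, was at 10.88, 11.12 and 11.20 in WT RM, 11.03, 11.08, 11.05 and 11.31 in Runx3Δ RM, 10.56 and 10.46 in WT CD11b+ DC and 10.05, 10.40 and 10.41 in Runx3Δ CD11b+ DC, again without overlap, with differences of 0.56 ± 0.14 (adjusted p = 0.047) and 0.83 ± 0.12 (adjusted p = 0.0015).

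Gla, alpha-galactosidase A, was at 11.00, 11.29 and 11.27 in WT RM, 10.58, 10.87, 10.93 and 10.96 in Runx3Δ RM, 10.39 and 10.72 in WT CD11b+ DC and 10.71, 10.76 and 10.70 in Runx3Δ CD11b+ DC. Every Runx3Δ RM sample was below every WT RM sample, and Runx3Δ RM overlapped Runx3Δ CD11b+ DC. RM exceeded CD11b+ DC by 0.63 ± 0.15 in WT (adjusted p = 0.027), and the difference in Runx3Δ was 0.11 ± 0.12 (adjusted p = 0.71). Gaa, acid alpha-glucosidase, which degrades glycogen, was at 9.17, 8.99 and 9.22 in WT RM, 8.97, 9.04, 8.96 and 9.21 in Runx3Δ RM, 8.48 and 8.51 in WT CD11b+ DC and 8.94, 8.78 and 8.70 in Runx3Δ CD11b+ DC. All RM samples were above all CD11b+ DC samples, closely so in Runx3Δ, where the difference was 0.24 ± 0.10 (adjusted p = 0.20) against 0.63 ± 0.12 in WT (adjusted p = 0.0082). Naglu, an enzyme of heparan sulfate breakdown, did not overlap between cell types either and passed in Runx3Δ alone (0.81 ± 0.18, adjusted p = 0.020; WT 0.64 ± 0.22, adjusted p = 0.14). Gusb (beta-glucuronidase), Glb1 (beta-galactosidase) and Man2b1 (an alpha-mannosidase) passed in neither, with differences of 0.06 to 0.47 in WT and -0.04 to 0.37 in Runx3Δ. Glb1 was at 6.85 in Runx3Δ RM replicate 1 and at 6.90 in Runx3Δ CD11b+ DC replicate 1, both of litter 1, and between 7.78 and 8.46 in the 10 other samples.

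The lipid enzymes and carriers had 4 of 8 genes higher in RM in each genotype and none lower. Galc, which splits galactosylceramide, was at 7.53, 7.69 and 7.73 in WT RM, 7.39, 7.87, 7.55 and 8.05 in Runx3Δ RM, 6.34 and 6.14 in WT CD11b+ DC and 5.58, 6.38 and 6.20 in Runx3Δ CD11b+ DC. The cell types stood more than 1 log2 unit apart with no overlap, at 1.41 ± 0.24 (adjusted p = 0.0047; 0.059 without WT CD11b+ DC replicate 2) and 1.66 ± 0.20 (adjusted p = 0.00044). Grn, the progranulin gene, was at 12.29, 12.48 and 12.68 in WT RM, 12.35, 12.73, 12.54 and 12.78 in Runx3Δ RM, 11.70 and 11.49 in WT CD11b+ DC and 11.59, 11.72 and 11.78 in Runx3Δ CD11b+ DC. No RM sample of Grn reached down to a CD11b+ DC sample, and the differences were 0.90 ± 0.15 (adjusted p = 0.00525; 0.072 without WT CD11b+ DC replicate 2 and 0.055 with WT samples alone) and 0.91 ± 0.13 (adjusted p = 0.0013).

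Asah1, acid ceramidase, was at 11.01, 10.77 and 10.90 in WT RM, 10.24, 10.84, 10.67 and 10.75 in Runx3Δ RM, 9.71 and 10.06 in WT CD11b+ DC and 9.78, 10.23 and 10.20 in Runx3Δ CD11b+ DC. Replicate 1 of Runx3Δ RM lay just above the highest CD11b+ DC sample, and the difference was 1.01 ± 0.20 in WT (adjusted p = 0.011; 0.13 without WT CD11b+ DC replicate 1) and 0.56 ± 0.16 in Runx3Δ (adjusted p = 0.067). Psap, the precursor of the saposins that present lipids to these enzymes, was at 13.12, 13.20 and 13.28 in WT RM, 13.07, 13.26, 13.25 and 13.30 in Runx3Δ RM, 13.05 and 12.84 in WT CD11b+ DC and 12.82, 12.88 and 12.90 in Runx3Δ CD11b+ DC. Psap differed by 0.26 ± 0.11 in WT (adjusted p = 0.23) and 0.36 ± 0.09 in Runx3Δ (adjusted p = 0.032; 0.063 with litter as a replicate block), the smallest difference among the genes called in Runx3Δ.

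Smpd1, acid sphingomyelinase, was at 7.27, 7.17 and 7.19 in WT RM, 6.68, 7.30, 7.10 and 7.31 in Runx3Δ RM, 6.68 and 6.30 in WT CD11b+ DC and 6.18, 6.59 and 6.79 in Runx3Δ CD11b+ DC. Within WT the cell types were apart and within Runx3Δ they overlapped through RM replicate 1, and the differences were 0.72 ± 0.22 (adjusted p = 0.085; 0.030 with litter as a replicate block) and 0.58 ± 0.18 (adjusted p = 0.084). Npc2, the soluble cholesterol carrier that hands its cargo to Npc1, was 1.73-fold and 1.75-fold higher in RM. Lipa, acid lipase, passed in neither genotype (0.65 and 0.56), and passed in both with litter as a replicate block (adjusted p = 0.011 and 0.034). Ppt1, a thioesterase that removes palmitate from proteins, differed by 0.43 in WT and 0.33 in Runx3Δ and did not pass.

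Neither transcription factor passed the test in either genotype. Tfeb was at 7.20, 7.25 and 7.33 in WT RM, 6.84, 7.16, 6.98 and 7.09 in Runx3Δ RM, 7.54 and 7.24 in WT CD11b+ DC and 7.22, 7.44 and 7.50 in Runx3Δ CD11b+ DC. In Runx3Δ cells every RM sample was below every CD11b+ DC sample, and the difference was -0.37 ± 0.11 (adjusted p = 0.075; 0.047 with litter as a replicate block), against -0.13 ± 0.13 in WT (adjusted p = 0.74), whose value was 0.021 without WT CD11b+ DC replicate 1. Tfe3 was at 8.43, 8.76 and 8.62 in WT RM, 8.11, 8.49, 8.45 and 8.53 in Runx3Δ RM, 8.68 and 8.61 in WT CD11b+ DC and 8.10, 8.51 and 8.46 in Runx3Δ CD11b+ DC, overlapping throughout, with differences of -0.04 ± 0.16 and 0.04 ± 0.14 whose sign changed between settings.

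The E-box was present in 7 of the 18 genes with a promoter window that were higher in WT RM (38.9%) and in 2 of 10 that did not pass, transcription factors aside (20.0%). The 2 with an E-box that did not pass in WT were Glb1 and Naglu. Cd63 and Galc were among the widest differences and held no E-box in the window. Any relation between the motif and these differences was not tested.

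The second question was what loss of Runx3 did to these genes within each cell type. None of the 34 was called between Runx3Δ and WT RM (limma, where 0.0141% of all rows were called), and 3 had an unadjusted p under 0.05, 1 higher and 2 lower, where 7.96% of all rows did. By limma's p, none met the fold of 1.5 and p of 0.05 used in the study's methods, a bar that 1.46% of all rows met. The median difference was -0.09, the range -0.35 to 0.31, and the lowest adjusted p 0.52. None was called between Runx3Δ and WT CD11b+ DC either, where 0% of all rows were, with 3 unadjusted p under 0.05, 2 higher and 1 lower, where 6.74% of all rows had one. These shares are near those of all rows and are no result about the 34 genes. None met the methods' fold and p by limma's p, which 2.13% of all rows met. The median was 0.01 with a range of -0.44 to 0.31 and a lowest adjusted p of 0.63. In both cell types the 95% interval lay within a 1.5-fold change for 26 of the 34 genes, so that a larger change remains possible within the interval of the 8 others in each.

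The 4 genes with the smallest p in RM were Gla (-0.35 ± 0.12, adjusted p = 0.52), Ctsl (-0.35 ± 0.14, adjusted p = 0.57), Ctsk (0.31 ± 0.14, adjusted p = 0.62) and Tfeb (-0.24 ± 0.11, adjusted p = 0.64). Runx3Δ RM lay entirely below WT RM for 3 of the 34 genes and entirely above for none, while 7.55% of all rows separated in either direction. In CD11b+ DC they were Lamp1 (0.24 ± 0.09, adjusted p = 0.63), Gaa (0.31 ± 0.12, adjusted p = 0.64), Ctsd (-0.44 ± 0.20, adjusted p = 0.74) and Tfe3 (-0.29 ± 0.16, adjusted p = 0.79), and the genotypes did not overlap for 6 genes, 2 above and 4 below, where 25.7% of all rows did not. Neither count of separated genes is a result about the 34. Whether the effect of Runx3 loss differed between the cell types was fitted as an interaction, Runx3Δ minus WT in RM less the same in CD11b+ DC. None of the 34 genes was called, where 0% of all rows were, and 3 had an unadjusted p under 0.05, as had 3.91% of all rows: Gla (-0.52 ± 0.19), Gaa (-0.39 ± 0.15) and Ctsd (0.60 ± 0.26). The fourth smallest p was that of Ctsk (0.40 ± 0.21), and the adjusted p of all 4 was 0.9996.

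**Figure D4:**
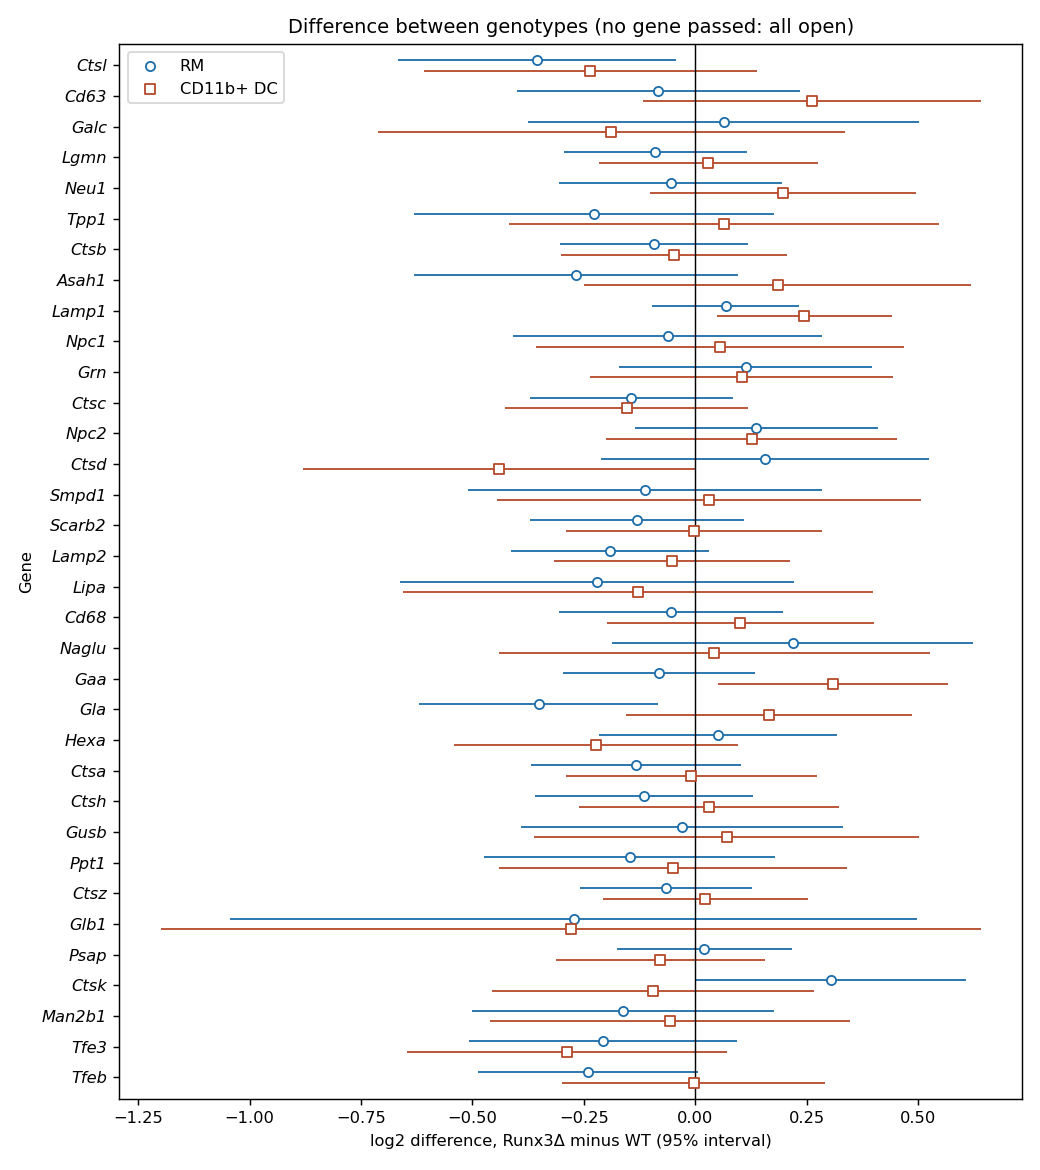
Difference between Runx3Δ and WT samples (log2 units, with 95% confidence interval from limma) for each gene, in RM (circles) and in CD11b+ DC (squares), with genes in the order of their difference between cell types in WT. No gene passed the adjusted test in either cell type, and the interval of Glb1 is the widest.

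The Runx3Δ samples of litter 1 moved with this comparison. Over the 32 genes other than the transcription factors, the mean deviation from each gene's average was 0.10 in Runx3Δ RM replicate 1. It was 0.34 to 0.51 in the 6 other RM samples. WT RM of the same litter (replicate 1) had 0.34, the lowest value of WT RM, and was the lowest of its group in 19 of 32 genes. In CD11b+ DC the mean deviation was -0.53 in Runx3Δ replicate 1 and -0.39 to -0.28 in the 4 others. Runx3Δ RM replicate 1 was the lowest of its group in 27 of 32 genes and Runx3Δ CD11b+ DC replicate 1 in 25 of 32. Without the first, the median Runx3Δ minus WT difference of these genes in RM was -0.00, with 16 above and 16 below 0, in place of -0.09 with 9 above and 23 below. Without the second, that in CD11b+ DC was 0.09, with 24 above and 8 below, in place of 0.03 with 17 above and 15 below. Over all rows, the array of Runx3Δ RM replicate 1 had the highest median (5.52) and the lowest upper quartile (7.30) of all arrays. That of Runx3Δ CD11b+ DC replicate 1 had the highest median (5.46) and lowest upper quartile (7.33) of the CD11b+ DC arrays. The share of all rows in which these samples were the lowest of their group was not counted. The counts of 27 and 25 therefore describe the 32 genes alone. What set these samples apart was not tested.

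Other lysosomal genes were read from lists outside the 34. Of 106 genes listed, 96 had a row of their own. Of these, 34 were higher and 1 lower in WT RM than in WT CD11b+ DC, with a median of 0.46. In Runx3Δ cells 30 were higher and 4 lower with a median of 0.32. The shares of all rows, for each list below as well, were 3.05% higher and 3.02% lower in WT, and 3.73% and 4.12% in Runx3Δ. Other hydrolases and their cofactors were higher for 11 of 29, led by the phospholipase Pla2g15 (1.99), the acid phosphatase Acp5 (1.95) and the acid phosphatase Acp2 (1.37). In Runx3Δ cells 8 were higher and 2 lower, the sulfatase Arsb (-1.44) and the ganglioside activator Gm2a (-0.35). Subunits of the vacuolar proton pump were higher for 7 of 17 in WT, with Atp6v1a (1.07), Atp6v1h (0.98) and Atp6v0b (0.91) first, and for 9 in Runx3Δ. Other membrane proteins were higher for 9 of 19 in WT, among them Gpnmb (1.60), the cystine exporter Ctns (0.99) and the sialic acid exporter Slc17a5 (0.97), and in Runx3Δ for 7, with Laptm4b lower (-0.46).

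The machinery that sorts enzymes to the lysosome was called for 1 of 11 genes in each genotype, in WT the retromer subunit Vps26a (0.98). Of 16 genes of lysosomal transcription and mTORC1 control, 5 were higher in WT RM and 4 in Runx3Δ RM, led in WT by Tfec, a factor of the same family as Tfeb and Tfe3 (2.18 ± 0.34, adjusted p = 0.0029), Rragc, a GTPase that brings mTORC1 to the lysosome (1.26), and its partner folliculin, Flcn (0.98). Of 4 protease inhibitors measured, Cstb was higher (1.01) and Cst3, the secreted cystatin C that blocks cysteine cathepsins, was lower in RM (-0.89 ± 0.10, adjusted p = 0.00040), with the same directions in Runx3Δ (0.72 and -0.78). None of the 96 genes was called between Runx3Δ and WT in either cell type, and the lowest adjusted p belonged to the protease Ctsf in RM (-0.79 ± 0.11, adjusted p = 0.066).

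**Figure D5:**
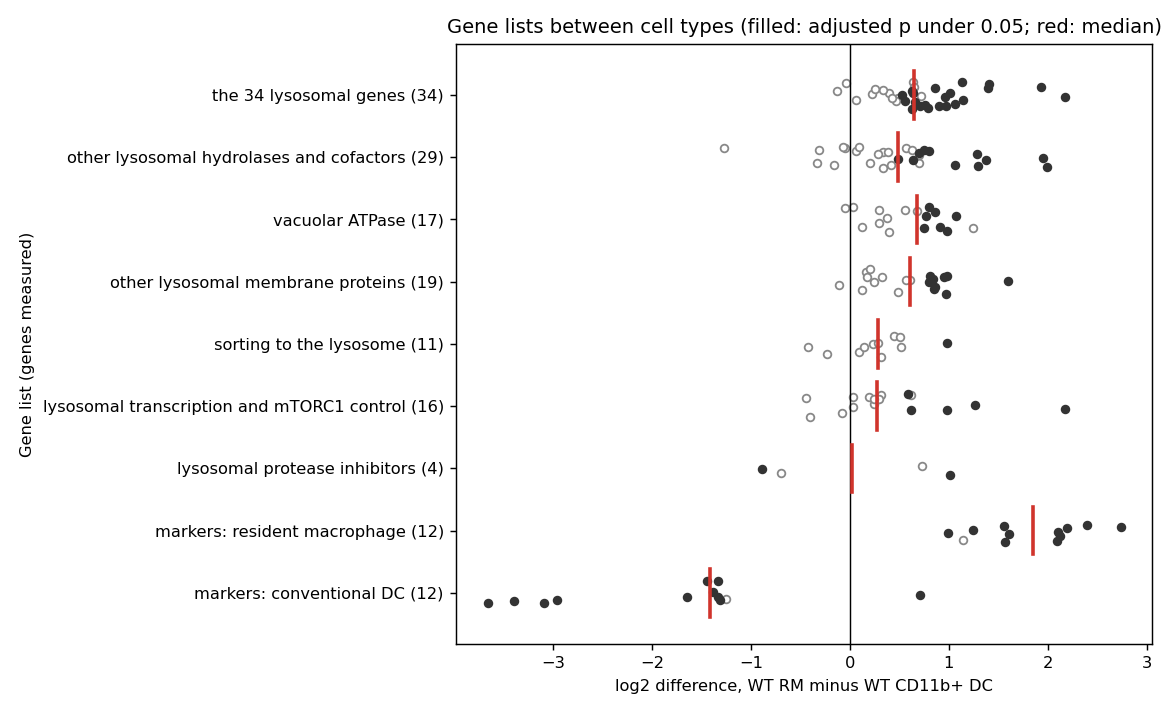
Difference between WT RM and WT CD11b+ DC (log2 units) of every measured gene in the 34 lysosomal genes, the other lysosomal lists and the 2 marker lists of the sorted cell types, with filled points for an adjusted p under 0.05 and a red line at the list median. The 34 genes have a median of 0.65 and the protease inhibitors, with Cstb to the right and Cst3 to the left, one of 0.02.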

How the data were processed

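The deposited table holds log2 intensity values of 12 arrays, which the authors made with Partek by RMA with a GC correction; they were used as deposited. The methods name an exon array and the platform annotation, which supplied the gene symbols, is that of a gene-level array. The genome build in the submitters' processing notes is mm9, and no coordinates were taken from the table. Of 35556 rows, 1621 carry several symbols and 12146 none, of which 6617 lead the table.

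All 4 groups entered 1 linear model in limma 3.58.1 (lmFit and eBayes, in R 4.3.3, with statmod 1.5.0), and its p-values over the whole table received a Benjamini-Hochberg adjustment, with a threshold of 0.05. The methods' test, a one-way analysis of variance without moderation, was run on the same values. At a fold of 1.5 and p of 0.05 it called 22 members higher in WT RM and 16 in Runx3Δ RM. Of all 35556 rows it called 2709 and 2484, in either direction. After adjustment it called 19 members higher in each genotype, and 1645 and 2142 rows in either direction. In the genotype comparisons it called no member. Of all rows it called 412 in RM and 561 in CD11b+ DC at that fold and p, and 0 after adjustment. Promoters were searched with Python 3.11.15 and pandas 2.3.3, and figures drawn with matplotlib 3.10.9. The fit was tested on simulated data.

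The genes, lists, naming rule and alternatives were chosen with earlier results of these data known. Named with the value in every sample were up to 12 called genes per comparison by size of the difference, the 4 with the smallest p where fewer than 4 were called, both transcription factors, and the 2 brightest and 2 dimmest rows; from other lists up to 3 genes. Samples were paired by the labels' litter number. The residuals of samples of one litter in different groups correlated with a median of 0.13 (13 pairs, -0.00 to 0.51), against -0.03 for different litters (40 pairs), and for RM and CD11b+ DC of 1 litter and genotype with 0.29 (5 pairs, 0.18 to 0.51). Alternatives were the litter block, the groups compared alone, the prior, weights per array, leaving out rows with a mean log2 level under 5, quantile normalization, centring arrays on their median, the treatment of genes with several rows, leaving out the unnamed rows, and leaving out each sample. No set test was run on the lists.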

Additional observations from a re-analysis of the deposited data

Results flagged for a closer look

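In Runx3Δ RM, the only group with 4 samples, 5 of the 34 genes had 1 sample far from the other 3, by the size of its gap to the nearest sample relative to the group's range (Dixon's criterion); chance flags about 5% of groups, or 1 in 20. Replicate 1 was the low sample in 4 of them: Lamp2 (10.74 against 11.04 to 11.09), Tpp1 (10.24 against 10.95 to 11.02), Man2b1 (10.39 against 11.0 to 11.12) and Ppt1 (10.68 against 11.26 to 11.30). In Hexa replicate 4 was the high sample (11.31 against 11.03 to 11.08). The share of the range taken by the gap was 0.873, 0.911, 0.834, 0.928 and 0.840 in this order. The other groups hold 2 or 3 samples and were not read this way. Genes that share a low sample are not independent, so the 1 in 20 does not apply to a count over genes. The share of all rows flagged in Runx3Δ RM was not counted, and the count of 5 is no result about the 34 genes.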

How the results depend on the processing

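In 24 alternatives no gene was called between Runx3Δ and WT in RM or in CD11b+ DC, nor was any called by the interaction in the 23 that could fit it. The count higher in WT RM (21) was 10 with the groups compared alone and ran from 9 to 24 when 1 sample was left out; over all alternatives it ran from 9 to 25, and that in Runx3Δ (21) from 16 to 27. One gene, Tfeb, was lower in Runx3Δ RM (1 in place of 0) with the litter block (-0.40, adjusted p = 0.047), array weights (0.031), quantile normalization (0.045), the mean of the rows of a gene (0.039) and the brightest row (0.039). In these settings 3.8% to 7.35% of all rows were called lower. In the paired fit, with litter as a replicate block, 24 genes were higher in WT RM, 21 of them shared with the unblocked fit, and 21 in Runx3Δ, 20 shared. Of all rows this fit called 3.64% higher in WT and 3.57% in Runx3Δ. Beside the genes named in the report the block changed no other call. The sign of Tfe3 turned in WT with the litter block (0.074) and between samples left out (-0.12 to 0.05; 0.05 without WT RM replicate 1), and in Runx3Δ with median centring (-0.00051) and between samples left out (-0.089 to 0.13; -0.0063 without Runx3Δ RM replicate 4 and -0.089 without Runx3Δ CD11b+ DC replicate 1). Tfeb in WT ran from -0.28 to 0.021, the latter without WT CD11b+ DC replicate 1. Tpp1 in Runx3Δ missed the threshold in the methods' test (adjusted p = 0.051). The causes were not tested. The low signal of Ctsk (a mean of 5.51) limits how small a change can be read there.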
